A study of Mus musculus with 2 samples.

Results

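Transcripts of the insulin-like growth factor (IGF) system were followed through 2 single-cell libraries of regenerating mouse muscle. The 10 genes were chosen by name from the 27998 genes of the count tables and not by a limit on level, though earlier results of these data were known. They were the ligands Igf1 and Igf2, the receptors Igf1r and Igf2r, and the binding proteins Igfbp2, Igfbp3, Igfbp4, Igfbp5, Igfbp6 and Igfbp7. Their counts were summed over the cells of each deposited cell type label and each day, to ask which cells carried the ligands, macrophages or fibro-adipogenic progenitors (FAPs, mesenchymal cells that lie between the muscle fibres), and which cells carried which binding protein. Both libraries came from the tibialis anterior, a muscle of the lower leg, of C57BL/6J mice (C57Bl/6 in the sample labels) injured with notexin, a snake venom toxin that destroys muscle fibres. One library was taken at day 2 and the other at day 7. The labels give 7 months of age for both mice, the cell annotation gives 4 months at day 2 and 7 months at day 7, and each library was 1 mouse of dissociated whole muscle. Thus no difference between days has a replicate check, day, mouse and library cannot be told apart, and the 95% intervals given in parentheses reflect counting error alone.

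IGF1 and IGF2 are secreted peptides that act through the tyrosine kinase receptor encoded by Igf1r, whereas the product of Igf2r binds IGF2 and carries it to lysosomes. The binding proteins hold IGFs in the extracellular space and can limit or prolong their action, and proteases release the ligands from them. In injured muscle, IGF signalling is known for promoting growth and differentiation of myogenic cells, and macrophages and FAPs are both known sources of IGF1.

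The kept cells numbered 3178 at day 2 and 3196 at day 7, with medians of 9058.5 and 6583 unique molecular identifier (UMI) counts, and 1 barcode was shared between the libraries. The 25 labels were gathered into 12 classes, and in each library 11 of the 12 marker lists had their highest summed level in their own class. The exceptions were the FAP list, which was highest in tenocytes at day 2, and the myogenic list, which was highest in myofibre nuclei at day 7. The smooth muscle class held more of the endothelial list (3700 CPM at day 2 and 5083 at day 7) than of its own (2440 and 4705), where endothelial cells held 4735 and 6021 of the endothelial list and 461 and 362 of the smooth muscle list. The sample labels give female mice and the cell annotation gives male. Sex-linked transcripts went against the label of female mice: Xist had 5 and 1 counts, and 4 Y-linked genes together had 6575 and 4856. All members together held 50172 counts in kept cells at day 2 and 124585 at day 7. Levels are given as CPM, the counts of a gene scaled to the same total in every label or class. Each UMI stands for 1 captured 3′ end, so CPM is not scaled by transcript length, and levels are compared between genes only on this per-transcript scale.

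By the GENCODE vM21 annotation of GRCm38, the ligand genes lie at chr10:87858265-87937042 (Igf1, plus strand) and chr7:142650766-142666816 (Igf2, minus strand), and the receptor genes at chr7:67952827-68233668 (Igf1r, plus strand) and chr17:12682406-12769664 (Igf2r, minus strand). Igfbp2 (chr1:72824503-72852474, plus strand) and Igfbp5 (chr1:72857932-72874884, minus strand) face each other with 5457 bases between their 3′ ends. The other binding protein genes are at chr11:7206086-7213923 (Igfbp3, minus strand), chr11:99041244-99054392 (Igfbp4, plus strand), chr15:102144362-102149511 (Igfbp6, plus strand) and chr5:77349240-77408041 (Igfbp7, minus strand). RefSeq promoters of GRCm38.p6, from 250 bases before to 50 bases after the start, were matched for all 10 genes. These 4 are printed because these genes carry the patterns described next: Igf1, high in FAPs and macrophages at day 7; Igfbp4 and Igfbp6, high in FAPs; and Igfbp7, high in vascular cells. Each is written 5′ to 3′ on the strand of the gene, and capitals mark 3 motifs, none sharing letters with another, that were searched on both strands. The first was TATAAA, the core promoter element called the TATA box. The second was CCAAT, the element bound by the factor NF-Y. The third was GGGCGG, the GC box bound by the factor Sp1.
Igf1 (chr10:87860861-87861160): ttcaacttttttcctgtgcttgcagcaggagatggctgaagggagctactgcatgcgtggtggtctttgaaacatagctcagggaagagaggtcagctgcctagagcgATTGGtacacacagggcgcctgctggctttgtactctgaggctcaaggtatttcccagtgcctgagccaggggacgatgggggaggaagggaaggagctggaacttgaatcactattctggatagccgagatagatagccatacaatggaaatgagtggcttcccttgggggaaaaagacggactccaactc
Igfbp4 (chr11:99040994-99041293): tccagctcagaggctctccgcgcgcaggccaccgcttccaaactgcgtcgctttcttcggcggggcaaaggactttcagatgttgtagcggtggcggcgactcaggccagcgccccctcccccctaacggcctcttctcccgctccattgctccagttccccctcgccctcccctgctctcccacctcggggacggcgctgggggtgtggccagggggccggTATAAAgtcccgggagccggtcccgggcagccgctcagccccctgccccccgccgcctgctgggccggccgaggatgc
Igfbp6 (chr15:102143936-102144235): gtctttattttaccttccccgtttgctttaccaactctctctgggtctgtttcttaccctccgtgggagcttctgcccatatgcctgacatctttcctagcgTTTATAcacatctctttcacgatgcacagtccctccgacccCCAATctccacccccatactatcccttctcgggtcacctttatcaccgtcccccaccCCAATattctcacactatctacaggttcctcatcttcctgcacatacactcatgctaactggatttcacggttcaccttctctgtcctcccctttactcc
Igfbp7 (chr5:77407996-77408295): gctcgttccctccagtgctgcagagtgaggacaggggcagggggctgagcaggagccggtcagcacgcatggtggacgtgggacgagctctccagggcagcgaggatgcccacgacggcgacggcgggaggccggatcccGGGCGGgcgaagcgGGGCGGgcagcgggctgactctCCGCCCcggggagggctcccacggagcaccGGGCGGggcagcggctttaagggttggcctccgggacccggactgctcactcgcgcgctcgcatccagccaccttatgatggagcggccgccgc

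The Igf1 promoter held 1 CCAAT box, on the reverse strand, and no match to the other motifs. Igfbp4 had a TATA box 28 bases before the start, and the Igfbp6 window had a TATA box on the reverse strand 148 bases before the start and 2 CCAAT boxes. Igfbp7, with a GC content of 73.3% against 49.7% for Igfbp6, had 4 GC boxes and neither of the others. Of 32851 promoters of the same length, 13.6% held the TATA box, 37.4% the CCAAT box and 35.7% the GC box. These matches describe the letters of the windows.

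**Figure D1:**
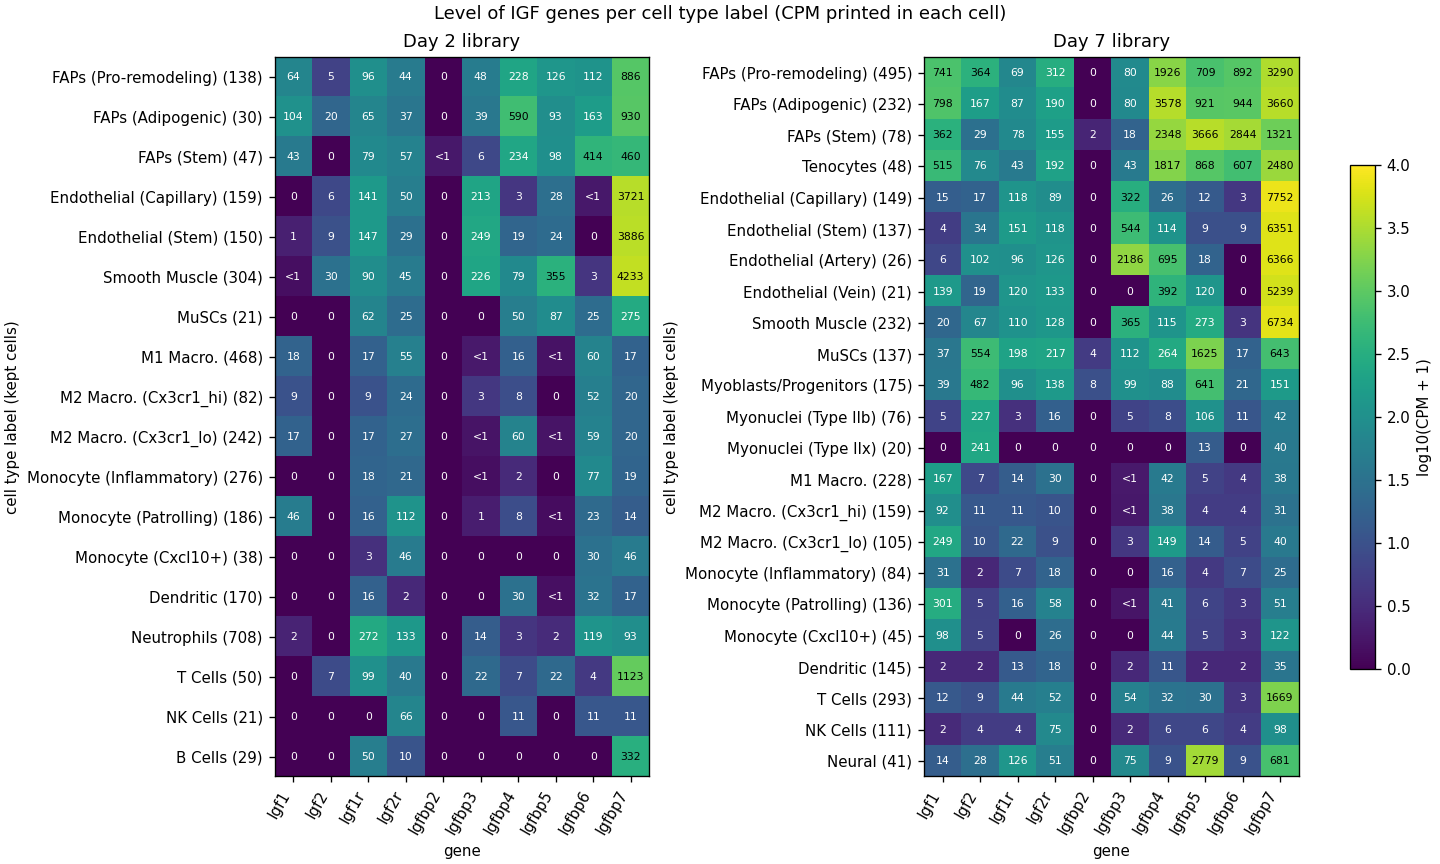
Level of each gene (columns) in each cell type label with at least 20 kept cells (rows, with the number of cells), in CPM, at day 2 (left) and day 7 (right); the colour is log10(CPM + 1) and the CPM is printed in each field. Igf1, Igf2 and Igfbp4 to Igfbp6 are higher in the FAP labels at day 7, Igfbp7 leads in endothelial and smooth muscle labels on both days, and Igfbp2 is near 0 throughout.

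Igf1 was carried mainly by FAPs and by monocytes and macrophages. In FAPs its level was 61.6 CPM (55.0 to 68.7, 316 counts in 215 cells) at day 2 and 724 (706 to 743, 5903 counts in 805 cells) at day 7. The log2 ratio of day 7 to day 2 was 3.56 (3.39 to 3.72). In monocytes and macrophages Igf1 stood at 18.7 CPM (16.7 to 21.0, 309 counts in 1292 cells) at day 2 and 173 (164 to 183, 1302 counts in 757 cells) at day 7, and the log2 ratio was 3.21 (3.03 to 3.39). Both classes were higher at day 7, by 11.8-fold and 9.24-fold. FAPs were above monocytes and macrophages on both days, with a log2 ratio of monocytes and macrophages to FAPs of -1.72 (-1.95 to -1.49) at day 2 and -2.06 (-2.15 to -1.98) at day 7. The same order held per cell, with 1.47 and 7.33 Igf1 counts per FAP at day 2 and day 7 against 0.239 and 1.72 per monocyte or macrophage.

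Because FAPs were deeper at day 2 (median 24329 counts) than at day 7 (8429), the share of cells with an Igf1 UMI was also taken after thinning each cell to 2000 UMIs. At that depth 9.86% of FAPs (6.21 to 14.7) held an Igf1 UMI at day 2 and 62.7% (59.2 to 66.1) at day 7, and 2.48% (1.70 to 3.48) and 22.4% (19.5 to 25.6) of monocytes and macrophages did. Unthinned, the shares were 52.6% and 87.6% of FAPs and 7.12% and 51.1% of monocytes and macrophages. Dendritic cells, a myeloid type set beside them as background, held an Igf1 UMI in 0 of 170 cells at day 2, which by the floor of 3 allows a share of cells with a UMI of up to 1.76%, and in 1.38% of 145 cells at day 7, with median depths of 12015.5 and 6151 counts. In T and NK cells the share was 2.48% at day 7 (median 3695.5 counts).

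The free RNA of the preparation was measured in barcodes with 1 to 100 counts. There Igf1 stood at 10.2 CPM at day 2 and 103 at day 7, so it was higher at day 7 in these barcodes too. Monocytes and macrophages at day 7 were above that level for Igf1 as a class, at 173 CPM, with patrolling monocytes, M2 macrophages with low Cx3cr1 and M1 macrophages above it and the other 3 labels below it. They were far below it for the transcripts most typical of other cells, with Igfbp7 at 43.0 CPM against 1470 in the ambient barcodes and Igfbp6 at 3.99 against 145. The 7 FAP markers summed to 490 CPM in monocytes and macrophages and to 68907 in FAPs at day 7 (279 and 13995 at day 2), with no marker at 0. Leaving out every monocyte or macrophage with 3 or more counts of Pdgfra, Dcn, Col1a1 or Col3a1 kept 1288 of 1292 cells at day 2 and 587 of 757 at day 7, and the log2 ratio of Igf1 between days was 3.22 without them.

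**Figure D2:**
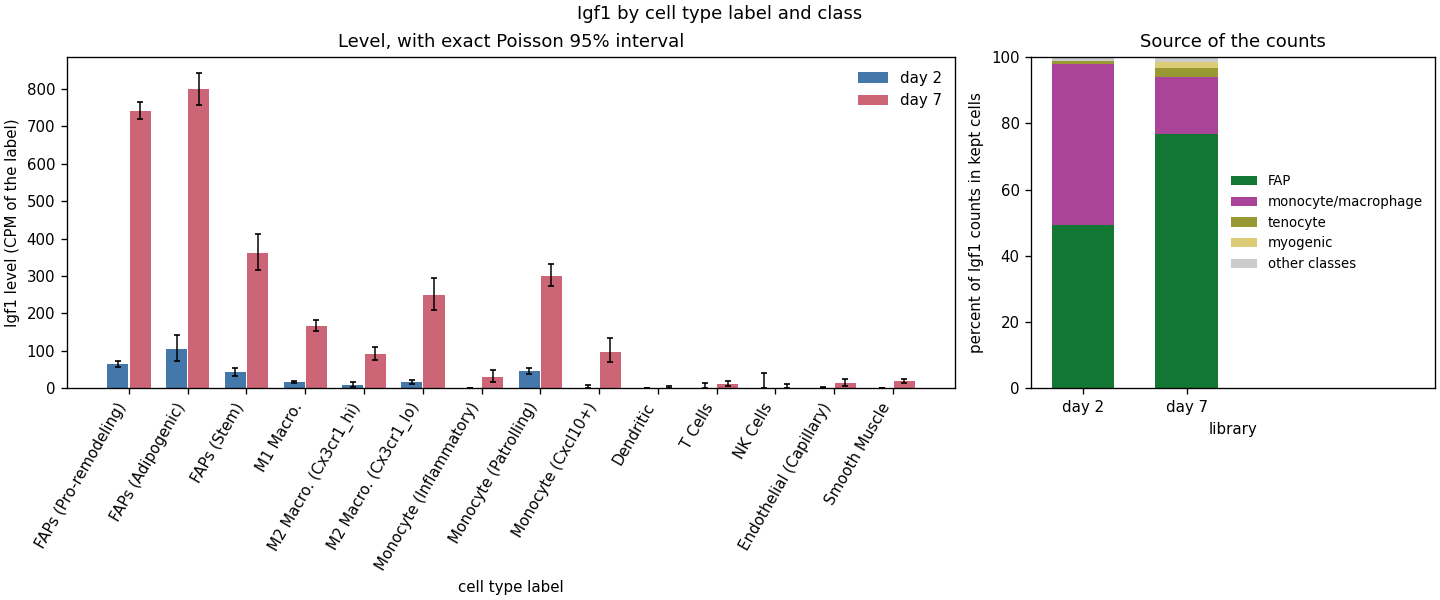
Left, Igf1 level in CPM (vertical axis) per cell type label at day 2 (blue) and day 7 (red), with exact Poisson 95% intervals as bars; right, the percent of all Igf1 counts in kept cells that came from each class in each library. The tallest bars are adipogenic FAPs (798 CPM) and pro-remodeling FAPs (741 CPM) at day 7, and the FAP share of counts is 49.5% at day 2 and 76.9% at day 7.

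Within FAPs, each of the 3 labels was higher in Igf1 at day 7. Pro-remodeling FAPs held 64.1 CPM at day 2 and 741 at day 7, adipogenic FAPs 104 and 798, and stem FAPs 42.5 and 362. At day 7 adipogenic FAPs were above pro-remodeling FAPs by 0.11 on the log2 scale (0.02 to 0.20), while stem FAPs were lower, with a log2 ratio to pro-remodeling FAPs of -1.03 (-1.24 to -0.84). Tenocytes, the tendon fibroblasts, lay between them at 515 CPM (450 to 586, 230 counts in 48 cells).

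Among monocytes and macrophages the highest Igf1 was in patrolling monocytes, at 46.4 CPM at day 2 and 301 (273 to 331) at day 7, where 74.3% of 136 cells had a UMI. Next at day 7 came M2 macrophages with low Cx3cr1 at 249 CPM (210 to 293) and M1 macrophages at 167. M2 macrophages with high Cx3cr1 held 92.1 CPM (75.9 to 110.8) and Cxcl10+ monocytes 98.4 (69.6 to 135), and both intervals include the 103 CPM of the ambient barcodes. The M2 macrophages with high Cx3cr1 were lower than those with low Cx3cr1 by 1.44 on the log2 scale (1.07 to 1.80). Inflammatory monocytes were at the other end, with 0 counts in 276 cells at day 2 and 30.5 CPM at day 7, which is below the ambient barcodes, and they were below patrolling monocytes by 3.30 on the log2 scale (2.60 to 4.09). M1 macrophages gave 42.9% of the 1302 Igf1 counts of the class at day 7, and patrolling monocytes 33.1%.

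As a source of all Igf1 counts, the 2 classes were nearly equal at day 2, when FAPs gave 49.5% (45.5 to 53.4) of 639 counts and monocytes and macrophages 48.4% (44.4 to 52.3). At day 7 FAPs gave 76.9% (75.9 to 77.8) of 7680 counts and monocytes and macrophages 17.0% (16.1 to 17.8). A share of this kind joins the level, the size of the cells and the number captured: FAPs were 6.77% of kept cells at day 2 and 25.2% at day 7, monocytes and macrophages 40.7% and 23.7%. With every class at the same number of cells, FAPs gave 67.9% at day 2 and 49.7% at day 7, and monocytes and macrophages 11.1% and 11.7%. Tenocytes took 20.2% and 32.5% of these equal-cell shares, from 7 counts in 16 cells at day 2 and 230 counts in 48 cells at day 7, so the lower FAP share at day 7 rests in part on this small class.

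Igf2, the fetal-type ligand expressed from an imprinted locus, had another distribution. It was scarce at day 2, with 200 counts in all kept cells, of which 76.5% (70.0 to 82.2) came from smooth muscle cells at 29.95 CPM. At day 7 it had 4498 counts, of which FAPs gave 54.2% and myogenic cells 35.8%. With every class at the same number of cells the order turned, with 26.9% from FAPs and 45.8% from myogenic cells. Muscle stem cells (MuSCs) had the highest level at day 7, 554 CPM (502 to 610), above myoblasts and progenitors at 482 (455 to 510) by 0.20 on the log2 scale (0.04 to 0.36). Type IIx and type IIb myonuclei followed pro-remodeling FAPs (364 CPM), at 241 and 227. The 21 MuSCs of day 2 held 0 Igf2 counts, where 3 counts would be 37.5 CPM.

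In FAPs Igf2 stood at 4.87 CPM at day 2 (25 counts) and 299 at day 7 (2440 counts), which is a log2 ratio of 5.94 (5.38 to 6.57). The FAP labels were unequal in this ligand, since pro-remodeling FAPs held 364 CPM, adipogenic FAPs 167 and stem FAPs 29.4 at day 7, and the log2 ratio of stem to pro-remodeling FAPs was -3.63 (-4.39 to -2.97). Unlike Igf1, which 94.7% of pro-remodeling FAPs carried, Igf2 was found in 42.8% of them. Monocytes and macrophages had 0 Igf2 counts at day 2 and 52 at day 7 (6.91 CPM), when the ambient barcodes held 97.9 CPM and T and NK cells 7.56, so their Igf2 was at the level of this background type.

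H19, the noncoding transcript that neighbours Igf2 in the same imprinted region, had 4.87 CPM in FAPs at day 2 and 802 at day 7, with a log2 ratio between days of 7.36 (6.80 to 7.99). It had 0 counts in monocytes and macrophages at day 2 and 46.3 CPM at day 7.

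**Figure D3:**
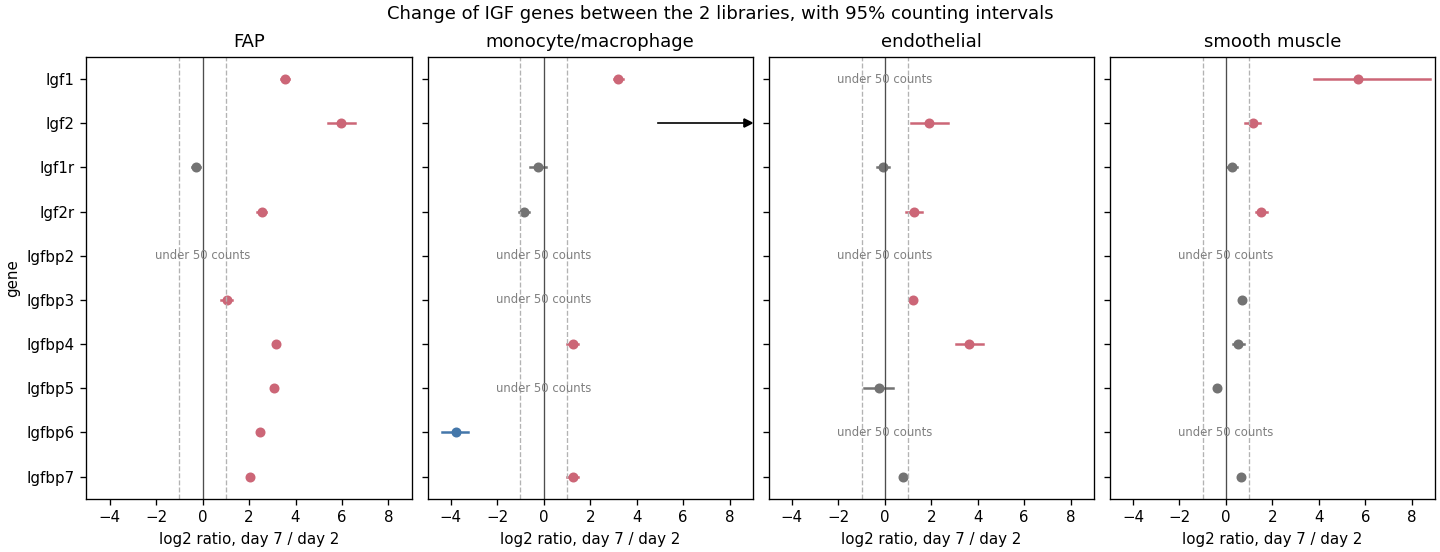
Log2 ratio of day 7 to day 2 (horizontal axis) for each gene (vertical axis) in 4 classes, with 95% counting intervals as lines; red is at least 2-fold higher and blue at least 2-fold lower at day 7, grey lies within 2-fold (dashed lines), and the black arrow is a lower bound for Igf2 against 0 counts. In FAPs 8 genes lie to the right of the 2-fold line, and in monocytes and macrophages Igfbp6 lies at -3.79.

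Of the receptors, Igf1r, which signals, was 89.8 CPM in FAPs at day 2 and 73.5 at day 7, giving a log2 ratio of -0.29 (-0.47 to -0.11). It was within 2-fold between days in monocytes and macrophages as well (16.1 and 13.6 CPM), in endothelial cells (132 and 125) and in smooth muscle cells (90.5 and 109.6), where its log2 ratios were -0.25, -0.08 and 0.28. The ambient barcodes held 25.5 and 25.4 CPM of Igf1r, so monocytes and macrophages were below them on both days. The label with the most Igf1r at day 2 was neutrophils, at 272 CPM (249 to 296), in which 38.1% of 708 cells had a UMI. At day 7 MuSCs led with 198 CPM (168 to 233), an interval that overlaps that of endothelium labelled stem, at 151 (117 to 190). MuSCs were above myoblasts and progenitors at 96.0 by 1.05 on the log2 scale (0.74 to 1.35). T and NK cells had less Igf1r at day 7, with 74.4 and 35.0 CPM and a log2 ratio of -1.09 (-1.74 to -0.40). NK cells held 0 and 2 of these counts, so the ratio rests on T cells as labelled (27 and 72 counts). Some T cell barcodes held endothelial markers, as given below, and their part in this ratio was not tested.

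Igf2r, the clearance receptor for IGF2, was higher at day 7 in FAPs, at 47.1 and 275 CPM, and the log2 ratio was 2.55 (2.35 to 2.74). It was also higher in endothelial cells, by 1.25 (0.90 to 1.61), and in smooth muscle cells, by 1.52 (1.28 to 1.77). Monocytes and macrophages went the other way within 2-fold, from 52.3 to 29.3 CPM, which is a log2 ratio of -0.84 (-1.06 to -0.62). Thus the 2 classes were within counting error of each other in Igf2r at day 2, with a log2 ratio of monocytes and macrophages to FAPs of 0.15 (-0.06 to 0.36), and apart at day 7, at -3.23 (-3.44 to -3.03). At day 2 patrolling monocytes (112 CPM, 66.7% of cells) and neutrophils (133 CPM) were the highest labels for this receptor.

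Of the binding proteins, Igfbp4, Igfbp5 and Igfbp6 were high in FAPs at day 7, with 23.2, 9.87 and 10.6 counts per cell. Tenocytes held 16.9, 8.08 and 5.65 counts per cell, and neural cells held 14.5 of Igfbp5. Igfbp4, a soluble inhibitor of IGF action, had 254 CPM in FAPs at day 2 and 2292 at day 7, with a log2 ratio between days of 3.17 (3.09 to 3.25). FAPs gave 89.4% of its 20903 counts at day 7. With every class at the same number of cells, FAPs gave 52.1% and tenocytes 38.0%. Adipogenic FAPs were the highest label on both days, at 590 and 3578 CPM, above pro-remodeling FAPs by 1.37 and 0.89 on the log2 scale.

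Igfbp5, which also binds extracellular matrix, was at 117 CPM in FAPs at day 2 and 975 at day 7, giving a log2 ratio of 3.06 (2.94 to 3.18). At day 2 smooth muscle cells led with 355 CPM. At day 7 the highest levels were in stem FAPs, 3666 CPM (3516 to 3821), neural cells, 2779 (2560 to 3011, 596 counts in 41 cells), and MuSCs, 1625 (1535 to 1719), and none of these 3 intervals overlapped. The level of stem FAPs was 97.7 CPM at day 2, and the ratio between days, 5.23 on the log2 scale (4.97 to 5.50), exceeded those of pro-remodeling FAPs, 2.49 (2.35 to 2.64), and adipogenic FAPs, 3.31 (2.82 to 3.86). In MuSCs Igfbp5 was at 87.4 CPM at day 2, from 7 counts in 21 cells. MuSCs were above myoblasts and progenitors in Igfbp5 by 1.34 on the log2 scale (1.23 to 1.45).

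Igfbp6, a binding protein with a preference for IGF2, was at 190 CPM in FAPs at day 2 and 1049 at day 7, and the log2 ratio was 2.46 (2.37 to 2.56). FAPs gave 95.6% of its 8948 counts at day 7. With every class at the same number of cells, FAPs gave 63.7% and tenocytes 33.8%. Among labels with at least 20 cells, stem FAPs were the highest on both days, at 414 and 2844 CPM, above pro-remodeling FAPs by 1.88 (1.69 to 2.07) and 1.67 (1.59 to 1.75) on the log2 scale. The 16 tenocytes of day 2 held 823 CPM (130 counts). Myeloid cells carried it at day 2 at lower levels: neutrophils held 119 CPM, inflammatory monocytes 77.4, M1 macrophages 60.1 and dendritic cells 32.1, against 23.9 in the ambient barcodes. Patrolling monocytes, at 23.0 CPM (17.7 to 29.4), and Cxcl10+ monocytes, at 30.4 (15.7 to 53.1), had intervals that include the ambient level. Smooth muscle cells and capillary endothelium were lower at day 2, at 3.13 and 0.81 CPM. In monocytes and macrophages 37.6% of cells had an Igfbp6 UMI at day 2 and 3.96% at day 7, and the level was 55.1 CPM (909 counts) and 3.99 (30 counts), which is a log2 ratio of -3.79 (-4.37 to -3.27). The M1, M2 (high and low Cx3cr1), inflammatory and patrolling labels were each lower at day 7, with log2 ratios from -4.06 in M1 macrophages to -2.72 in patrolling monocytes. Igfbp6 in myoblasts and progenitors at day 7 rested on few cells, since 38 of its 51 counts came from a single cell.

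Igfbp3, the main carrier of IGFs in blood, and Igfbp7, a matrix protein with low affinity for IGFs, had their highest levels in vascular classes. Igfbp7 had the largest number of counts of the members, 36400 at day 2 and 61443 at day 7. It stood at 4011 and 6989 CPM in endothelial cells and 4233 and 6734 in smooth muscle cells, log2 ratios of 0.80 (0.76 to 0.84) and 0.67 (0.64 to 0.70), within 2-fold. FAPs were lower on both days, at 783 and 3216 CPM, with a larger ratio of 2.04 (1.99 to 2.09). By number of counts, however, FAPs were the largest source of Igfbp7 at day 7, with 42.7% against 29.7% from smooth muscle and 19.1% from endothelial cells, whereas at day 2 they gave 11.05% and smooth muscle cells 59.4%. The endothelial markers in the smooth muscle class are given above, and their part in its Igfbp7 and Igfbp3 levels was not tested. Capillary endothelium was the highest label at day 7, at 7752 CPM, and all 149 of its cells had an Igfbp7 UMI.

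Igfbp3 was at 226 CPM at day 2 and 365 at day 7 in smooth muscle cells, and at 235 and 539 in endothelial cells, where the log2 ratio was 1.20 (1.05 to 1.35). Capillary endothelium was within 2-fold, at 0.60 (0.35 to 0.85), and endothelium labelled stem was at 1.13 (0.86 to 1.41). Artery endothelium held 365 of the 904 endothelial counts at day 7. FAPs gave 20.7% of the 2971 Igfbp3 counts at day 7, behind smooth muscle (33.3%) and endothelial cells (30.4%). Within the endothelium at day 7 its level depended on the vessel label. Artery endothelium held 2186 CPM (1967 to 2422), with a UMI in 25 of 26 cells, above capillary endothelium (322 CPM) by 2.76 on the log2 scale (2.53 to 2.99). Vein endothelium had 0 Igfbp3 counts in 21 cells, where 3 counts would be 18.96 CPM. Igfbp4 stood at 695 CPM in artery and 392 (300.4 to 502) in vein against 25.9 in capillary endothelium, and the vein interval includes the 404 CPM of the ambient barcodes. Vein endothelium was also the endothelial label with the most Igf1, 139 CPM (87.1 to 210.5), from 22 counts in 11 of the 21 cells, an interval that includes the 103 CPM of the ambient barcodes. Its Igfbp5 level of 120 CPM came from 19 counts in 1 cell.

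T cells as labelled held 1123 CPM of Igfbp7 at day 2 and 1669 at day 7, far above NK cells at 11.05 and 97.8. These counts were held by few barcodes. At day 7, 21 of 293 T cell barcodes had 10 or more Igfbp7 UMIs and held 97.7% of the Igfbp7 counts of the label. All 21 had 3 or more counts of endothelial markers, 1 of them had a count of Cd3e, Cd3d or Trac, and their median was 12290 counts against 3376 in the 223 T cell barcodes with no Igfbp7 UMI. At day 2 the corresponding 4 of 50 barcodes held 92.8%, and all 4 had the endothelial markers. Of these, 2 of 4 had a count of Cd3e, Cd3d or Trac, as did 17 of the 38 barcodes without an Igfbp7 UMI, so the low tally of T cell transcripts was seen at day 7 alone.

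Igfbp2 was close to absent, with 1 count in kept cells at day 2 and 25 at day 7. Of the latter, 21 were in myoblasts and progenitors (8.47 CPM, in 14 of 175 cells) and 3 in MuSCs, while the remaining count was in a stem FAP.

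**Figure D4:**
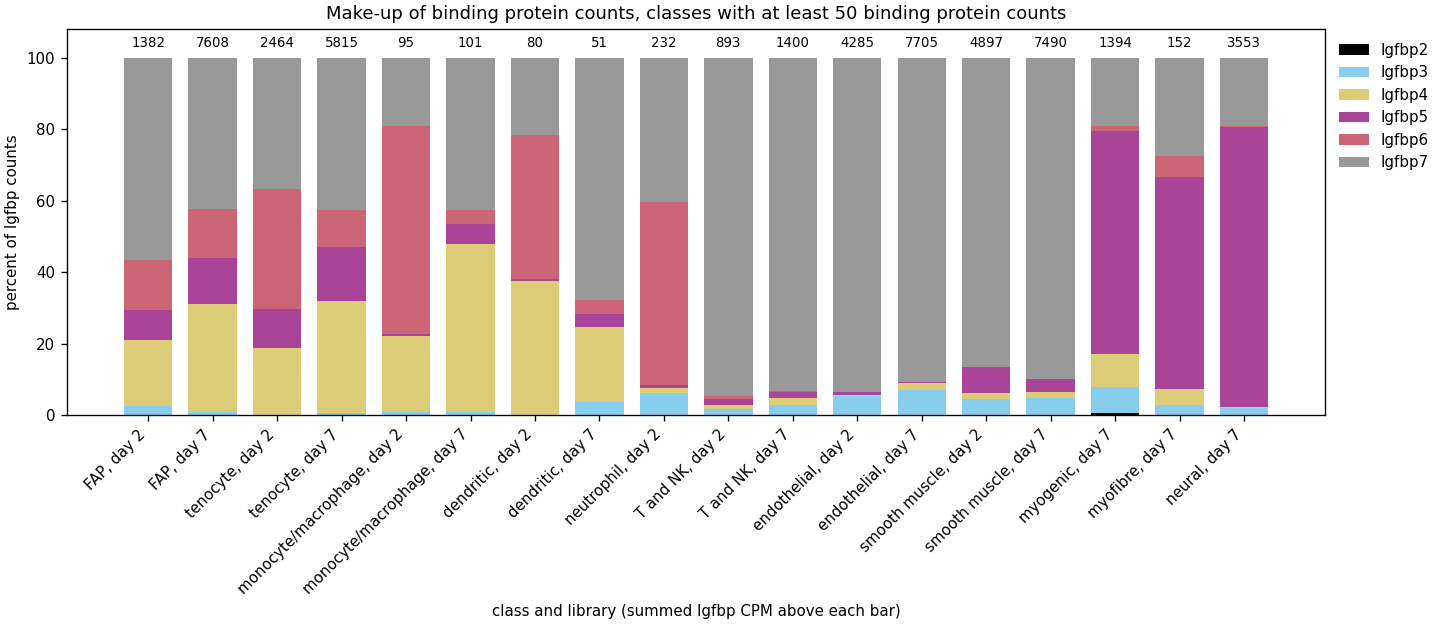
Percent of the summed Igfbp counts that each binding protein gene took (vertical axis) in each class and library with at least 50 such counts (horizontal axis), with the summed Igfbp level in CPM above each bar. Igfbp7 takes 86.5% to 93.6% in endothelial and smooth muscle cells, Igfbp5 takes 62.4% in myogenic and 78.2% in neural cells at day 7, and in monocytes and macrophages Igfbp6 takes 58.3% at day 2 and 3.96% at day 7.

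Taking the 6 binding proteins as a sum, FAPs held 1382 CPM at day 2 and 7608 at day 7, close to the 7705 CPM of endothelial cells and the 7490 CPM of smooth muscle cells at day 7. The make-up differed between these classes, however. In FAPs at day 7 Igfbp7 took 42.3% of the sum, Igfbp4 30.1%, Igfbp6 13.8% and Igfbp5 12.8%, whereas Igfbp7 alone took 90.7% in endothelial cells and 89.9% in smooth muscle cells. Tenocytes were like FAPs at day 7, with a sum of 5815 CPM. Of it Igfbp7 took 42.6%, Igfbp4 31.3%, Igfbp5 14.9% and Igfbp6 10.4%. Monocytes and macrophages had a nearly constant and low sum, 94.6 and 101 CPM, with a changed make-up: Igfbp6 took 58.3% at day 2, and Igfbp4 (47.0%) and Igfbp7 (42.6%) took most at day 7. For comparison, the sum of both ligands in this class was 18.7 CPM at day 2 and 180.1 at day 7, so ligand counts exceeded binding protein counts at day 7 (1354 against 758). In FAPs the ligand sum was 66.4 and 1024 CPM, below the binding protein sum on both days.

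**Figure D5:**
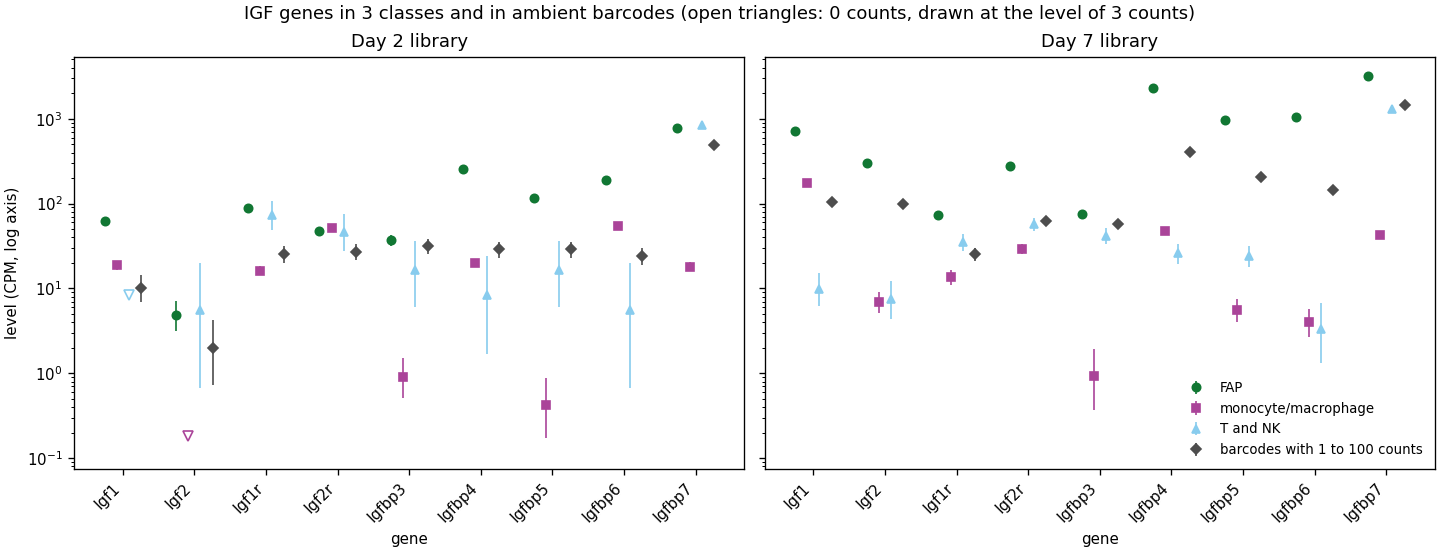
Level in CPM (vertical log axis) of 9 genes in FAPs, in monocytes and macrophages, in T and NK cells and in barcodes with 1 to 100 counts, at day 2 (left) and day 7 (right), with 95% counting intervals; open triangles mark 0 counts, drawn at the level of 3 counts. At day 7 Igf1 is the only 1 of the 9 genes for which monocytes and macrophages (173 CPM) lie above the ambient barcodes (103 CPM).

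The members were then read against all genes of each comparison, with a gene compared when it had at least 50 counts over both sums and counted when it was at least 2-fold apart. Since the members were chosen with earlier results of these data known, these counts are a description and not a test. Between days in FAPs, 8 of 9 compared members were higher at day 7 (all but Igf1r) and 0 were lower, where 22.7% of all compared genes were higher and 14.4% lower. Their median log2 ratio was 2.55 against 0.15 over all genes. Igfbp3, at 1.03, was the member nearest the 2-fold line. The median-of-ratios scaling moved all FAP ratios down by 0.15 and left 7 members past 2-fold, without Igfbp3. In monocytes and macrophages 4 of 7 members were higher (Igf1, Igf2, Igfbp4 and Igfbp7) and 1 lower (Igfbp6), where 15.4% of genes were higher and 13.1% lower. The values of Igf2, Igfbp4 and Igfbp7 there were below those of the ambient barcodes, and after SoupX correction for ambient RNA 3 members were past 2-fold, Igf1, Igfbp6 and Igfbp7.

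In endothelial cells 4 of 7 members were higher (Igf2, Igf2r, Igfbp3 and Igfbp4) and 0 lower, against 12.1% and 9.46% of genes. The largest ratio there was that of Igfbp4, 3.61 (3.06 to 4.21), from 12.4 to 151 CPM, which at day 7 is below the 404 CPM of the ambient barcodes (28.8 at day 2). The endothelial level at day 7 was above the Igfbp4 levels of T cells (32.0 CPM), dendritic cells (10.6) and NK cells (6.11). Endothelial Igf2, at 8.25 and 30.4 CPM, was below the 97.9 CPM of the ambient barcodes at day 7 as well, and above the 8.61 CPM of T cells. In smooth muscle cells 3 of 8 were higher (Igf1, Igf2 and Igf2r) and 0 lower, against 11.2% and 7.34%. The Igf1 ratio of 5.70 in smooth muscle cells rested on 2 counts at day 2 and 55 at day 7, a level of 20.3 CPM that is below the 103 CPM of the ambient barcodes. Igf2 in this class, at 66.8 CPM, was below the 97.9 CPM of the ambient barcodes at day 7 too. It was above the Igf2 levels of T cells (8.61 CPM) and NK cells (4.07) at day 7.

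Within a library, 0 of 8 members were higher and 7 lower in monocytes and macrophages than in FAPs at day 2, where 19.2% of genes were higher and 24.2% lower, and Igf2r was the one within 2-fold. At day 7, 0 of 9 were higher and 9 lower, against 15.7% and 29.7% of genes. The gap was smallest for Igf1 (-2.06) and largest for Igfbp6 (-8.04, -8.61 to -7.52) at day 7. At day 2 the gap was largest for Igfbp5, at -8.10 (-9.42 to -7.05). The same scaling would move these ratios up by 0.19 at day 2 and 0.28 at day 7, and all 7 and all 9 members stayed lower under it. These comparisons share their sums with those between days.

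Other genes of the IGF axis were taken from a list of 39 genes, also chosen with earlier results of these data known. In FAPs 27 of them were compared, of which 16 (59.3%) were higher and 3 (11.1%) lower at day 7, where the shares over all genes were 22.7% and 14.4%. The share that was lower was near that of all genes. The higher genes included parts of the receptor pathway, namely Irs1, an adaptor of the IGF1 and insulin receptors (7.79 and 35.5 CPM, log2 ratio 2.19), Insr, the insulin receptor (1.38), Grb10, an adaptor that restrains both receptors (2.02), and Pik3r1, a regulatory subunit of PI3 kinase (42.7 and 112 CPM). Proteases of binding proteins were among them as well: Pappa, which cleaves IGFBP4, stood at 3.12 and 19.6 CPM (2.65), Htra1 at 126 and 551 (2.13) and the lysosomal protease Ctsd at 191 and 422 (1.14). So were the growth hormone receptor Ghr (2.14), H19, the transcription factors Foxo1 (1.10), Foxo3 (1.64) and Foxo4 (1.38), which insulin and IGF signalling hold out of the nucleus, Sesn1 (2.48), and the matricellular genes Wisp1 (2.44), Wisp2 (1.71) and Nov (3.54). Irs2 (-1.38), the protease Adamts1 (-1.78) and the mTOR inhibitor Ddit4 (-1.08) were lower.

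In monocytes and macrophages 17 genes of the list were compared, of which 4 (23.5%) were higher and 2 (11.8%) lower at day 7, against 15.4% and 13.1% of all genes, so these counts do not set the list apart. Insr (1.24), Foxo3 (1.10), Sesn1 (2.65) and H19 were higher at day 7, and Igf2bp2 (-1.03) and Adamts1 (-1.48) were lower. H19, at 46.3 CPM, was below the 339 CPM of the ambient barcodes (T and NK cells held 17.0). The Insr level at day 7, 12.9 CPM (10.5 to 15.7), was not apart from the 10.9 CPM of the ambient barcodes, which held 5.57 at day 2. Against FAPs, monocytes and macrophages were higher in 2 of 22 genes at day 2 (9.09%, against 19.2% of all genes), Ctsd (4.17) and Foxo4 (1.22), and lower in 10 (45.5%, against 24.2%), namely Adam12 (-7.98), Ctgf (-7.82), Grb10 (-7.46), Ghr (-6.97), Htra1 (-6.93), Cyr61 (-6.91), Adamts1 (-6.59), Wisp2 (-5.47), Ddit4 (-2.90) and Igf2bp2 (-1.33). At day 7 they were higher in 2 of 27 (7.41%, against 15.7% of all genes), Ctsd (3622 CPM against 422 in FAPs) and Sesn1 (log2 ratio 1.02), and lower in 18 (66.7%, against 29.7%). The widest gaps at day 7 were those of Wisp1 (-8.24), Nov (-7.79), Ctgf (-7.47), Htra1 (-7.32) and Pappa (-7.21), and Irs1 had 289 counts in FAPs against 2 in monocytes and macrophages. Also lower at day 7 were Wisp2, Adam12, Cyr61, Adamts1, Grb10, Ghr, H19, Ddit4, Foxo1, Igf2bp2 and Pik3r1, with log2 ratios from -7.05 to -1.10.

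Finally, the genes most like each ligand and binding protein were sought over the 29 sums of a label and a day with at least 50 cells, by Pearson's r of log2(CPM + 10) among 8834 genes. These sums share 2 libraries and differ in depth, and the values are a description. Igf1 was most like Ahnak2 (0.919), Olfml3 (0.905) and Gaa (0.903), and Igf2 was close to Hoxc10 (0.940) and the imprinted gene Peg3 (0.924). Igfbp6 was most like Pi16 (0.879), Mmp23 (0.876) and Scara3 (0.873), of which Pi16 was on the FAP marker list. For Igfbp4 the nearest genes were Kdelc2 (0.942), Snhg18 (0.935) and Numbl (0.934), and for Igfbp5 Gas1 (0.967), Ntn4 (0.949) and Mapk8ip1 (0.948). The vascular pair had the highest values: Igfbp7 with the basement membrane collagen genes Col4a2 (0.985) and Col4a1 (0.985) and with Meox2 (0.975), and Igfbp3 with Tspan6 (0.985), Mpzl1 (0.974) and Ptprg (0.969). Igfbp2 had too few counts for this measure.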

How the data were processed

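The 10 members and the other gene lists were chosen with earlier results of these data known. Single-cell 3′ libraries (10x Chromium v3) of 1 mouse per day were sequenced. Gene by barcode tables of UMI counts, in whole numbers, were deposited for all barcodes and for called cells, from Cell Ranger, release 3.0.1 per the file headers and 3.1.0 per the submitters' processing notes, with mm10 as the genome. The deposited SoupX values are estimated counts corrected for ambient RNA by the authors, and a deposited table gives barcodes their cell type. In the study, annotation followed doublet removal and integration with many other datasets, so labels rest on more than these 2 libraries. No doublet caller was run here, and the doublets left were not counted.

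Labelled cells were kept from a minimum of 750 genes and 1000 transcripts, with a mitochondrial share of no more than 30% in the SoupX values. This removed 316 and 189 labelled barcodes, and 43 and 31 had no label. Called cells held 41123913 counts at day 2 and 32356088 at day 7, which set the counting precision. Uncorrected counts were summed per label or class and scaled to CPM. Levels have exact Poisson intervals, ratios exact conditional binomial intervals and shares exact Clopper-Pearson intervals, all at 95%. Where no count was found, 3 counts served as the floor. With 1 library per day there is no test and no p-value, and a fixed 2-fold ratio with at least 50 counts over both sums took its place. Classes were compared between days with at least 50 cells in both libraries, and labels were ranked with at least 20 cells. Genes were named by rule: all members, list genes past 2-fold in FAPs or in monocytes and macrophages, and the 3 genes most like each ligand or binding protein, among genes with at least 500 counts and without mitochondrial and ribosomal protein genes. The values of 2 genes that this rule takes are not reported here. Alternatives were other cell limits, SoupX values, means over cells, median-of-ratios scaling, thinning to 2000 UMIs, removal of cells with markers of the other class, other count minimums of 10 and 200, and 1.5-fold. The ratio intervals were tested on simulated data. Python 3.11.15 with numpy 2.4.6, scipy 1.17.1, pandas 2.3.3 and matplotlib 3.10.9 was used.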

Additional observations from a re-analysis of the deposited data

Results flagged for a closer look

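Opposite directions between classes flagged the following values, and none of these differences between classes was tested, since each day has 1 library. Igfbp4 had a log2 ratio of day 7 to day 2 of -1.49 in dendritic cells (64 and 11 counts), against 3.17 in FAPs, 1.24 in monocytes and macrophages, 1.65 in T and NK cells (3 and 55 counts) and 3.61 in endothelial cells. At day 7 the Igfbp4 levels of monocytes and macrophages (47.3 CPM), T and NK cells (26.0), endothelial cells (151) and dendritic cells (10.6) were all below the 404 CPM of the ambient barcodes. At day 2 dendritic cells held 29.8 CPM of Igfbp4, near the 28.8 CPM of the ambient barcodes. Igfbp6 had a log2 ratio of -3.79 in monocytes and macrophages and -4.06 in dendritic cells (69 and 2 counts), against 2.46 in FAPs.

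Called barcodes that met the limits on cells but were outside the annotation table also held Igf1. Its level was 26.4 CPM (22.4 to 31.0) in 680 barcodes at day 2 and 68.3 CPM (59.6 to 77.9) in 477 at day 7, where dendritic cells held 0 and 1.92 CPM. The barcodes with 1 to 100 counts held 10.2 and 103 CPM, so at day 7 the unannotated barcodes were below this ambient level.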

How the results depend on the processing

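No paired analysis was possible because each day has 1 library. Equal numbers of cells per class moved the FAP share of Igf1 counts to 67.9% at day 2 and 49.7% at day 7, and that of monocytes and macrophages to 11.1% and 11.7%. For the log2 ratio of Igf1 in monocytes and macrophages to FAPs, a mean over cells gave -1.97 at day 2 and median-of-ratios scaling -1.79 at day 7. SoupX values left 3 of 7 members past 2-fold between days in monocytes and macrophages (28.8% of all genes in either direction), and a 1.5-fold limit gave 5 of 8 in smooth muscle cells (39.3%). The Igfbp7 ratio in dendritic cells reversed with SoupX values, to -1.13. The other counts of members moved by less than 1.5 times. Every annotated barcode, and cells without markers of the other class, moved 0 of 56 and 0 of 32 gene ratios beyond their counting intervals, whereas thinning moved 24 of 52, a mean over cells 17 of 56, median-of-ratios scaling 12 of 56, SoupX values 11 of 54 (with 1 reversed) and stricter cell limits 2 of 56. The sign changed in 2 ratios under thinning, 2 under a mean over cells, 1 under SoupX values and 1 under stricter limits, and the largest shifts were 4.63 with SoupX values and 3.97 with a mean over cells, on the log2 scale. The number of captured cells limits rare classes: the 22 myogenic cells of day 2 are under the minimum of 50 for a class, and no ratio between days is given for them.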
